A study of Xenopus tropicalis with 54 samples.

Results

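The genes described here are nodal1, gdf3, gdf6, bmp3 and fst, which encode 4 ligands of the TGF-β family and the secreted antagonist follistatin in gastrulae of the frog Xenopus tropicalis. Each gene was placed by the coordinates that the study's tables list for its symbol, and the β-catenin (Bcat) peaks of the deposited peak list within 50 kb of those coordinates were taken as its peaks. That gave 14 peaks of the 11711 in the list. Of the 14, 11 are themselves coordinates listed for their gene and so had to be included, and the other 3 are neighbours of the nodal1 coordinates.

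The study asked which genes Sox17, an endoderm transcription factor, and Bcat, the effector of canonical Wnt signalling, bind and regulate together, and used whole embryos of the Nigerian strain staged by Nieuwkoop and Faber (NF). Endogenous Sox17 was measured by ChIP-seq, the sequencing of DNA bound to an immunoprecipitated protein, in 2 samples at NF10.5 with no injection named in the labels. Embryos were injected with antisense morpholino oligos (MO) against Sox17 (12 samples, NF9 to NF12) or against ctnnb1, the gene of Bcat (14 samples, NF7 to NF12). These and 12 and 14 controls, which the labels call uninjected, were profiled by RNA-seq. Of these the ctnnb1 MO and its control have 1 sample each at NF11 and NF12. The paper's methods, unlike the labels, describe the controls as injected with a control MO. They also describe the Sox17 knockdown as a mix of a sox17a MO and a sox17b MO. The 52 RNA-seq libraries were left out here, and no level of expression is given. Whole embryos mix all germ layers, and the cells in which a region was bound are not known from these data.

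The deposited list carries the name of Sox17, but it is the list of Bcat peaks: all 3667 distinct intervals listed as Bcat peaks in the tables at hand have the start and end of a deposited peak, and 0 of the 2377 listed as Sox17 peaks do. The Bcat peaks were called from 1 published dataset, so no peak has a replicate error. The paper took that dataset from an earlier study by Nakamura and colleagues on X. tropicalis gastrulae. The Bcat peaks thus do not come from the ChIP-seq and RNA-seq samples described above. The paper does not state the strain of the embryos used for Bcat. The list gives a sequence, a start and an end, and neither the read depth nor the height of a peak is known. Position, number and width are therefore what can be compared. The 11711 peaks lie on 393 sequences, 10752 of them on the 10 chromosomes, and their widths run from 199 to 5696 bp with a median of 386 bp.

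TGF-β family ligands signal through paired serine/threonine kinase receptors that phosphorylate Smad proteins. Nodal and the related Vg1 and activin ligands act through Smad2 and Smad3 and induce mesoderm and endoderm, whereas BMP ligands act through Smad1, Smad5 and Smad8 and pattern the embryo from ventral to dorsal. Secreted antagonists such as follistatin, chordin, noggin and lefty bind the ligands or their receptors and limit where they act. When Wnt signalling is on, Bcat enters the nucleus and is brought to DNA by Tcf/Lef factors, while Sox17 binds DNA through its HMG domain.

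The study's list of ChIP-qPCR primers, oligos that amplify a chosen region from immunoprecipitated DNA, has a pair named for xnr1, an older name that RefSeq gives as a synonym of nodal1. The pair is shown because it is a designed sequence named for the gene with the most peaks within 50 kb, and it is written 5′ to 3′ in lower case with nothing marked.
xnr1 +4.8kb FWD: aggagtcgagtcaagagaag
xnr1 +4.8kb REV: agacaccggctgattctaa
The primers are 20 and 19 bases long. Both sequences also stand in that list under the name dkk1 -12kb, so which locus the pair amplifies was not determined here. It was not placed in a peak, since no v9.0 sequence was used.

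Nodal1, a Nodal ligand that induces mesendoderm, had the most peaks of the 5 genes within 50 kb, though not among peaks listed for the gene itself, where gdf6 had more. Its 5 peaks lay at chr3:121788422-121788797, chr3:121794268-121794560, chr3:121799119-121799566, chr3:121806892-121807210 and chr3:121808823-121809284 of the v9.0 genome, within a span of 20863 bp. In that order they were 376, 293, 448, 319 and 462 bp wide. The widest was wider than 69.1% of all peaks of the list and the narrowest wider than 15.8%. Thus the nodal1 peaks lay on both sides of the list's median width, with 2 above it and 3 below.

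Only 2 of the 5 nodal1 peaks, the 293 bp and the 448 bp peak, are listed for nodal1. The 376 bp peak is listed for nodal2, another Nodal ligand, and lies 5471 bp from the nearest nodal1 coordinate. The 319 bp and 462 bp peaks, at 7325 and 9256 bp from it, are listed for ash2l, a subunit of histone H3 lysine 4 methyltransferase complexes. In the RefSeq annotation, which uses assembly version 10.0 and served for gene order only, nodal1 lies between nodal2 and ash2l on chromosome 3. The 50 kb rule thus joined peaks that the nearest-start assignment of the study had divided among 3 genes, and which of these genes a peak acts on is not known from positions.

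Gdf6, a BMP ligand, came next with 4 peaks, all of them listed for it. They lay at chr6:115122931-115123687, chr6:115144192-115144599, chr6:115145923-115146300 and chr6:115147491-115147971 and were 757, 408, 378 and 481 bp wide. The first is the widest of all 14 peaks and wider than 94.98% of the list. It stood 20505 bp from the other 3, which were separated by 1324 and 1191 bp. Gdf6 therefore had 1 wide, distant peak and a close group of 3 peaks of 378 to 481 bp.

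Gdf3, a ligand named derriere in Xenopus and given that synonym by RefSeq, signals on the Smad2 and Smad3 branch. It had 2 peaks, at chr1:100371054-100371679 and chr1:100373104-100373497, of 626 and 394 bp and 1425 bp apart. RefSeq places it between klf2 and gdf1, another ligand of the same branch. The 626 bp peak was wider than 89.3% of all peaks, while the 394 bp peak was close to the list's median, with 52.0% of all peaks narrower.

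Fst, the follistatin gene, whose product binds activin and some BMPs, also had 2 peaks. They lay at chr1:179560284-179560964 and chr1:179562717-179563176, 1753 bp apart, and were 681 and 460 bp wide. Both exceeded the median width of the list, and 92.2% of all peaks were narrower than the first. Gdf3 and fst were thus alike in layout, each with a pair of peaks less than 2 kb apart of which 1 was among the widest of the 14.

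Bmp3, a BMP family member known in mammals for opposing other BMPs, had a single peak at chr1:76904150-76904429. At 280 bp it was the narrowest of the 14, wider than 11.2% of the list. No other peak lay within 50 kb of it, as was the case for 24.8% of all peaks.

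**Figure D1:**
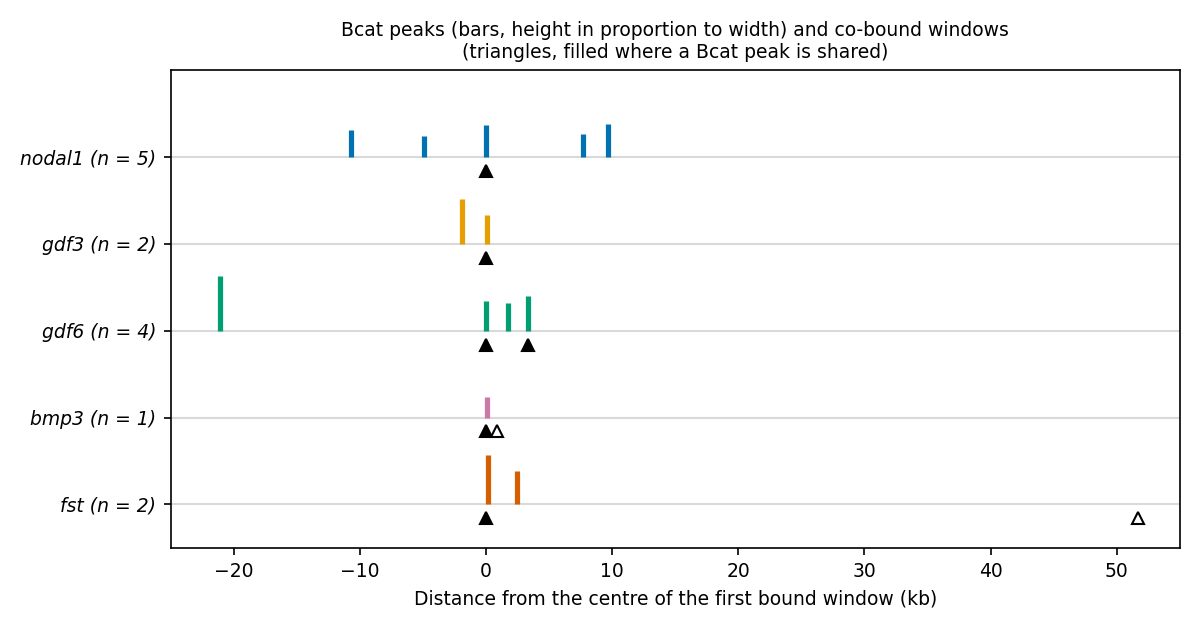
Position of the 14 Bcat peaks (bars, height in proportion to width) of nodal1, gdf3, gdf6, bmp3 and fst in kb from the centre of the first co-bound window that shares a Bcat peak, with the co-bound windows as triangles, filled where a peak is shared and open where none is. The 5 nodal1 peaks spread over 20863 bp, gdf6 has 1 peak far from the other 3, and the open triangle of fst stands alone.

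Across the 14 peaks the median width was 428 bp, with a range of 280 to 757 bp, and 9 were wider than the list's median. By gene the median was 570.5 bp at fst, 510 bp at gdf3, 444.5 bp at gdf6, 376 bp at nodal1 and 280 bp at bmp3. The ranges overlapped among fst, gdf3, gdf6 and nodal1, so their order by median is a description only, and bmp3 stood below the narrowest nodal1 peak by its single value. At least 300 bp of width was reached by 12 of the 14 peaks, where 81.9% of all peaks reach it, so the share at these genes was close to that of the list. The 2 narrower peaks were those of 293 bp at nodal1 and 280 bp at bmp3.

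**Figure D2:**
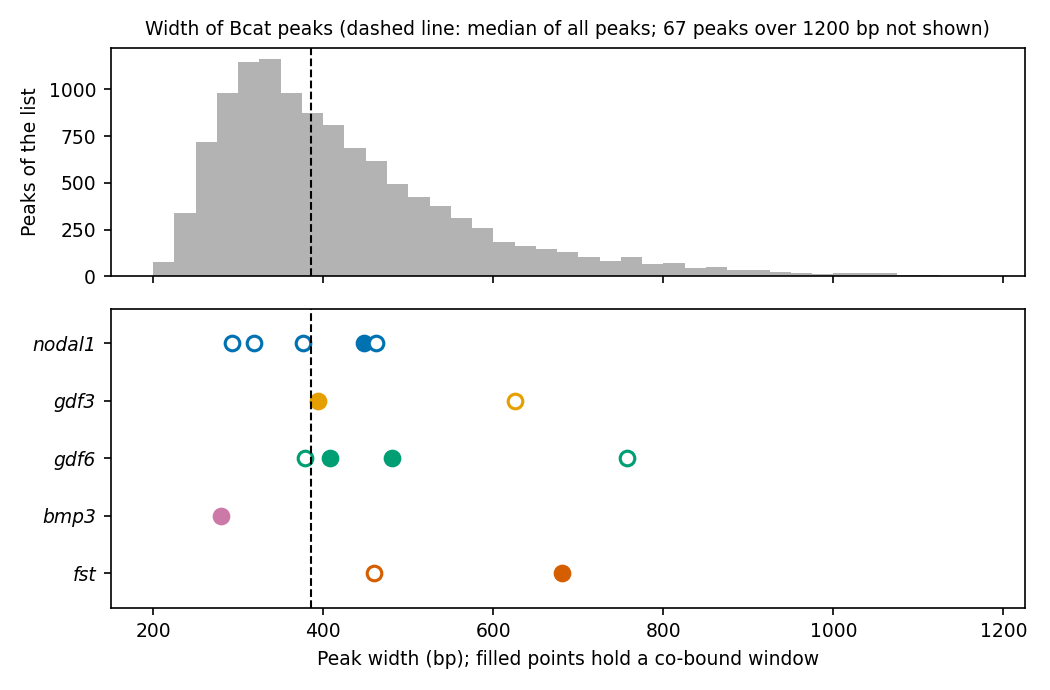
Upper panel, number of Bcat peaks of the whole list by width in bp, with the few peaks past the end of the axis left out, and lower panel, width of each of the 14 peaks by gene, filled where the peak holds a co-bound window. The dashed line is the list's median of 386 bp, which 9 of the 14 peaks exceed, and bmp3 has the narrowest peak at 280 bp.

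The number of peaks was also set against the length searched, since genes with several listed coordinates had more sequence within reach. Nodal1 had 4.75 peaks per 100 kb in 105300 bp, against 0.857 per 100 kb over chromosome 3. Gdf6 had 3.199 per 100 kb in 125041 bp, against 0.814 over chromosome 6. The values were 1.95 at gdf3, 1.32 at fst and 0.989 at bmp3, against 0.884 over chromosome 1. Every one of the 5 genes lay above its chromosome, bmp3 by the least, but regions placed on listed peaks hold at least those peaks by construction. The share of searched sequence inside peaks was 1.80% at nodal1, 1.62% at gdf6, 0.996% at gdf3, 0.751% at fst and 0.277% at bmp3, which is the same order as for number per length.

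Each nodal1 peak had 4 other peaks within 50 kb, a number that 32.3% of all peaks reach or exceed. Each gdf6 peak had 3, reached by 42.4%, and the gdf3 and fst peaks had 1, the list's median being 2. Such numbers of neighbours were thus common in the list, whose highest was 31. The gaps between neighbouring peaks of the same gene are limited by the 50 kb rule, so they are given beside the median of all gaps, 29243 bp, as a description only. At nodal1 they were 5471, 4559, 7326 and 1613 bp, and 12.0 to 30.2% of all gaps were as short. At gdf6 the gap of 20505 bp was near the middle of the list, with 44.9% as short, and those of 1324 and 1191 bp had 9.85 and 8.87% as short. The share was 10.5% for the gap at gdf3 and 12.8% for that at fst.

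The 50 kb limit lay in an empty stretch at these genes. The farthest peak inside it was the 462 bp peak 9256 bp from a nodal1 coordinate, and the nearest outside were fst neighbours of 451 and 340 bp at 57470 and 66361 bp. The counts were the same with 10, 25 and 50 kb. With 5 kb only the 2 peaks listed for nodal1 were left there, and gdf6 with 4 then had the most. The peaks of the other genes are themselves listed coordinates, so they are kept at any distance by construction. Around the study's co-bound windows alone, described below, gdf6 had 3 peaks within 5 kb and nodal1 2. Within 10 kb of those windows gdf6 had 3 and nodal1 4, while gdf3, fst and bmp3 kept theirs at both distances. With 100 kb they rose to 11 at nodal1, 4 at fst, 3 at gdf3 and 2 at bmp3, and stayed at 4 at gdf6.

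Co-bound windows are regions of 150 bp that the study listed as bound by both Sox17 and Bcat at genes that changed in both knockdowns. The name is kept as the study's, though 71 of the 191 windows shared no Bcat peak of the deposited list. All 5 genes belong to the 84 genes with such windows, because that is how the tables list them, and they hold 8 of the 191 windows. Of these 8, 6 shared bases with a Bcat peak of the deposited list, which is 75% (95% Wilson interval, 40.9 to 92.9%), where 62.8% of all windows did. The interval over all 191 is 55.8 to 69.4%, and at the other 79 genes 114 of 183 windows (62.3%) shared a peak. The 191 windows include the 8, and windows of 1 gene share their source and are not independent. The shares and intervals are therefore a description, and a difference between the 5 genes and the rest was not tested.

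Each of the 6 windows lay wholly inside its peak, as did 116 of the 120 windows of all genes that share a peak. The 8 windows were centred within 1 bp of a listed Sox17 interval, so the distance of a window from the centre of its Bcat peak is also that of the Sox17 interval. It was 13 bp at nodal1 and, on the other side of the centre, 15 and 24 bp at the windows of gdf6, 46 bp at bmp3, 59 bp at gdf3 and 140 bp at fst. The median of these 6 was 35 bp, against 31.5 bp over the 120 windows of all genes that share a peak. At nodal1 and gdf6 the Sox17 and Bcat regions were thus centred almost alike, and at fst they were displaced by the most.

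The Sox17 intervals themselves overlapped the peaks to different degrees. At nodal1 the interval chr3:121799142-121799567 had 425 of its 426 bp in the 448 bp peak. At gdf6 both intervals, of 309 and 278 bp, lay entirely inside peaks of 408 and 481 bp. At fst 94.4% of an interval of 449 bp was inside, at gdf3 86.9% of 373 bp and at bmp3 75.8% of 360 bp. The bmp3 interval was wider than the peak it overlapped. The peaks that held no co-bound window shared no Sox17 interval listed for the gene to which they were assigned here. Every Sox17 interval at hand for these genes has a window centred on it, so this split was largely fixed by the listing. Intervals listed for other genes, such as nodal2 or ash2l, were not compared, and the Sox17 intervals are only partly at hand. The share over all peaks was not computed, so a peak that held no window cannot be called free of Sox17.

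Bmp3 and fst each had 1 window without a Bcat peak. The bmp3 window at chr1:76905001-76905150 lay 572 bp beyond the end of the bmp3 peak, with its Sox17 interval of 256 bp 518 bp from it. The fst window at chr1:179612114-179612263 lay 48938 bp from the nearest fst peak and had a Sox17 interval of 197 bp. Over all genes 71 windows shared no peak, at 202 to 175996 bp from the nearest one with a median of 8761 bp, and 9 of them were within 1 kb of a peak. The unshared bmp3 window was thus among the few close to a peak and that of fst among the distant ones.

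**Figure D3:**
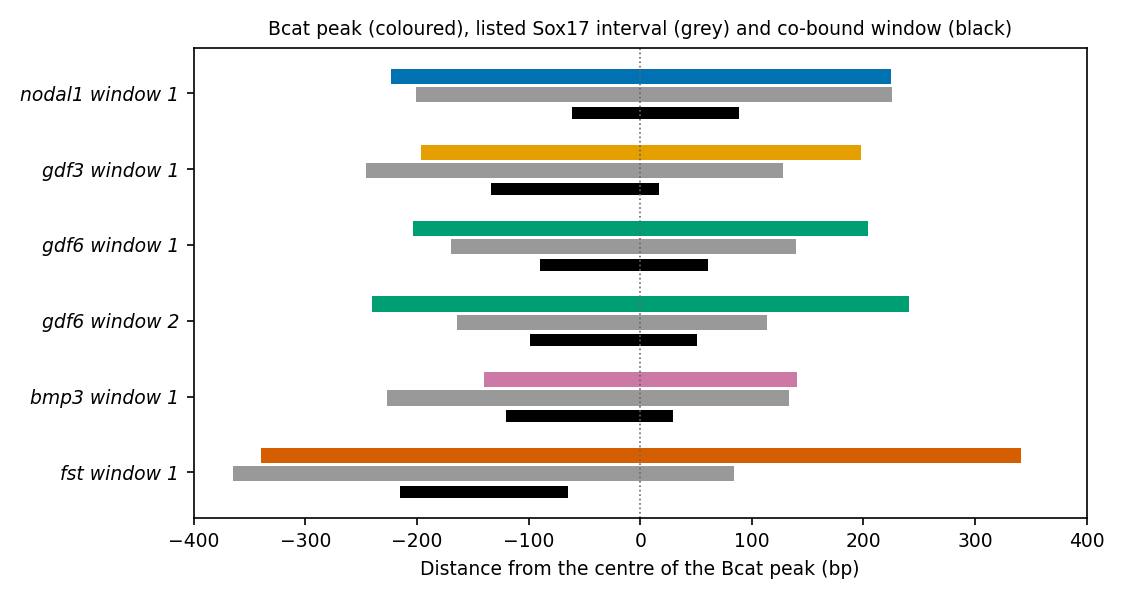
The 6 co-bound windows (black, 150 bp) of the 5 genes that share a Bcat peak, drawn with that peak (coloured) and the listed Sox17 interval (grey) in bp from the peak's centre. The windows of nodal1 and gdf6 sit within 24 bp of the centre, that of fst 140 bp from it, and the Sox17 interval of bmp3 extends past the end of its peak.

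At these genes the median width was 428 bp (280 to 681 bp, 6 peaks) where a peak held a window and 419 bp (293 to 757 bp, 8 peaks) where it held none, and the ranges overlapped. Over all genes the median at a co-bound window was 450 bp (228 to 1077 bp, 120 peaks). The widest peaks of gdf6, at 757 bp, and of gdf3, at 626 bp, held no window, whereas the widest of fst did.

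The Sox and Tcf sites listed for each window are annotations of sequence made by the study from motif matrices and were not recounted here. The nodal1 window had the fewest listed Sox sites of the 8, with 3 Sox and 1 Tcf sites. The gdf3 window had 14 and 2. Of the gdf6 windows, the one in the 408 bp peak had 6 and 3 and that in the 481 bp peak 19 and 1, the most Sox sites of the 8. The windows of gdf6 thus spanned most of the range of Sox sites among the 8.

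The bmp3 window with a peak had 8 Sox and 5 Tcf sites, the most Tcf sites of the 8, and the one without a peak had 10 and 2. At fst the window with a peak had 4 and 2 and the one without a peak 12 and 4. At both genes the window without a Bcat peak had more listed Sox sites than the window with one. It had more Tcf sites at fst but fewer at bmp3. These are single windows of each kind, and the same contrast over the windows of all genes was not computed. Summed over windows, listed Sox and Tcf sites were 25 and 4 at gdf6, 18 and 7 at bmp3, 16 and 6 at fst, 14 and 2 at gdf3 and 3 and 1 at nodal1. Nodal1 thus had the fewest listed sites, in its single window.

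All 8 windows had at least 1 site of both kinds and more Sox than Tcf sites. By the listed site numbers, 148 of all 191 windows (77.5%) had both and 166 had more Sox than Tcf sites. Windows of this kind were thus the rule in the list. The paper's text reports both motifs at a smaller share of these 191 peaks, and others with Sox motifs only. The reason for the difference was not determined here. At the other 79 genes 140 of 183 windows (76.5%) had both. The medians of the 8 windows, 9 Sox and 2 Tcf sites, were close to the 8 and 2 of all windows.

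Among the 84 genes with co-bound windows, counted the same way within 50 kb of the windows, the median was 3 peaks. Nodal1 had rank 10 from the top with 5 peaks, tied with 8 other genes and above 66. Gdf6 had 4 peaks, tied with 13 others and above 52. Gdf3 and fst had 2 each, a number shared by 15 genes, with 21 genes below them. Bmp3, with 1, was tied with 19 others and had only 1 gene below it, plscr2 with 0. The highest counts were 25 at ventx3.1, a homeobox gene induced by BMP signalling, 15 at sox17a and 12 at lhx5. The 5 genes thus lay at ranks 10 to 64 of the 84, and many genes shared each of their counts.

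**Figure D4:**
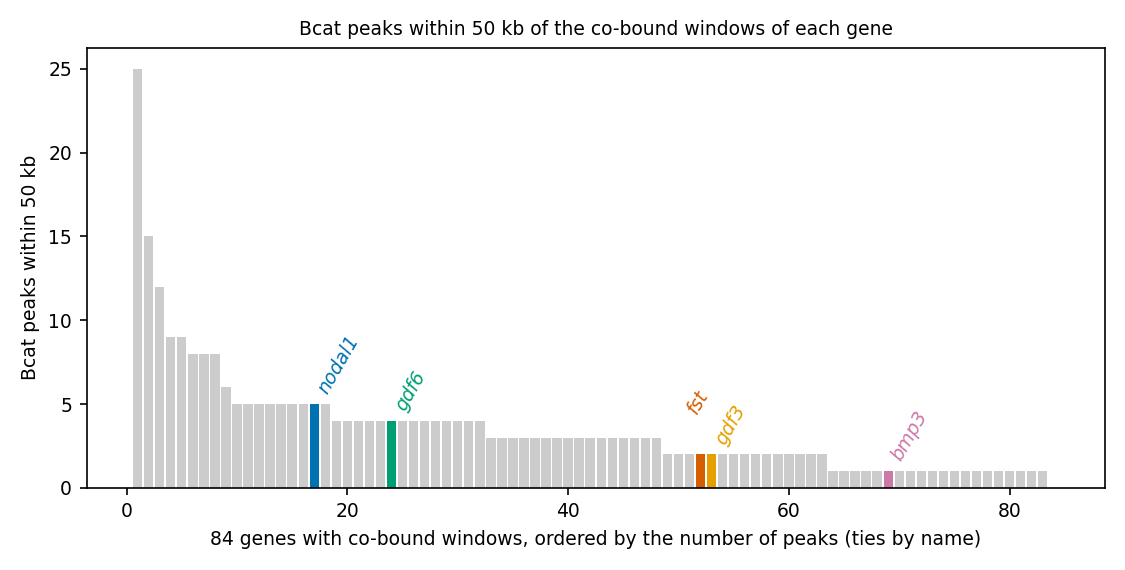
Number of Bcat peaks within 50 kb of the co-bound windows for each of the 84 genes with such windows, in falling order, the 5 genes in colour. Nodal1 (5 peaks) and gdf6 (4) lie above the median of 3, gdf3 and fst (2) and bmp3 (1) below it.

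The other genes of the pathway were taken from a list of 80 symbols, of which 36 have a coordinate in the tables at hand. Those tables are partly at hand and list bound genes, so the counts describe genes chosen for having a peak, and a gene left out is not a gene without one. The 36 had 1 to 25 peaks within 50 kb with a median of 5, and 6 have a co-bound window: the 5 genes described here and ventx3.1. Nodal1 was at that median, and gdf6, gdf3, fst and bmp3 were below it. The 5 genes were already among those with windows, and the share over all listed genes was not computed. The number with a window is therefore a description only.

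Among the Nodal ligands nodal2 had 5 peaks, the same peaks as nodal1, and nodal6 had 2. The 9 GDF and BMP ligands with a coordinate had a median of 2 peaks, from 1 at bmp3 and gdf10 to 7 at admp, an organizer ligand of the BMP type, and 8 at bmp4, a ventral BMP ligand. Gdf6 came after those genes and ahead of bmp2 with 3. Of 7 antagonists fst had the fewest with 2, next to 3 at cer1, a Nodal, BMP and Wnt inhibitor, 5 at chrd and 6 at nog, both BMP inhibitors of the organizer, and 9 at lefty, a Nodal inhibitor, and at bambi, a pseudoreceptor.

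Receptors and Smad-pathway genes had a median of 4 peaks over 8 genes, up to 11 at acvr1b, a type I receptor for Nodal and activin. The medians were higher at target genes: 7 over 5 Nodal targets such as gsc with 7 and eomes with 10, both of the mesendoderm programme, and 10.5 over 4 BMP targets such as id3 with 11. The paper names gsc and eomes, and the antagonists cer1, chrd and fst, among Bcat targets. It names id2, msx1 and bambi among zygotic Wnt targets, so the roles used here are not separate from Wnt targets. The 5 genes described here, with 1 to 5 peaks, did not exceed the Nodal target with the fewest, mix1 with 5, nor reach the BMP target with the fewest, id2 with 8. Such low counts were common, the median being 3 over the 84 genes with windows, counted around windows only. The pathway counts were not set against the length searched, and listed coordinates ran from 1 at nodal2 to 14 at bambi. The groups of the pathway list were not tested against each other, since positions of a single list give no replicate.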

How the data were processed

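The series holds 2 Sox17 ChIP-seq samples and 52 of RNA-seq, and the latter were left out. The reads behind the Bcat peaks came from the earlier published dataset, whose gastrulae the paper places at NF10.5. Per the methods, FastQC and Trimmomatic were used for read quality and Bowtie2 2.3.4.7 for alignment to genome version 9.0. Picard and samtools served to drop duplicates and reads with several placements. MACS2 called peaks over input DNA of NF10.5 embryos with its defaults, and an IDR threshold of 0.01 on pseudoreplicates selected them. IDR, the irreproducible discovery rate, scores the agreement of peaks between random parts of the same reads. A peak kept here was thus not required to recur in a second library. The values deposited by the authors are start and end positions, with no score, coverage or count. Dropping reads with several placements can lose peaks in repeated sequence.

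Starts, which count from 0 in the deposited list and in most of the listed coordinates, were converted to count from 1. Starts in the study's list of Sox17 peaks were taken to count from 1 already and were not changed. Distances are differences between the nearest ends, a window was taken to share a peak from 1 bp, and intervals for shares are 95% Wilson intervals that cover counting error only. No test was made, and groups were taken from the labels. The 5 genes were named by the choice of the genes, and others where they lie within 50 kb, belong to the pathway list, or have the most or fewest peaks, with sox17a and lhx5 added as next in order after their values were seen. The members and lists were chosen with earlier results of these data known. RefSeq genes (UCB_Xtro_10.0) gave names and gene order only. A further primer pair is not reported here. The alternatives were distances of 5, 10, 25 and 100 kb, windows as the only anchors, peaks of at least 300 bp, peaks within 500 bp merged, the mean width, whole or central window overlap, windows within 1 kb of a peak, and number per length. Interval routines were tested on simulated data. Python 3.11.15, numpy 2.4.6, scipy 1.17.1 and matplotlib 3.10.9 were used, with random seed 7.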

Additional observations from a re-analysis of the deposited data

How the results depend on the processing

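Of 65 values recomputed for 18 results, 59 stayed within 1.5 times the value reported and 6 moved. Many of the 59 could not move, so the tally is no measure of robustness. All peaks of gdf3, gdf6, bmp3 and fst are themselves listed coordinates, which a shorter distance cannot drop. All 14 peaks lie within 10 kb of a listed coordinate, so the widths within 10 kb are those of the same peaks. With a distance of 5 kb nodal1 kept 2 peaks, fewer than the 4 of gdf6, and the 5 genes 11. With a distance of 100 kb the number of peaks became 11 at nodal1, 2 at bmp3, 4 at fst and 24 over the 5 genes, and with peaks of at least 300 bp it became 0 at bmp3. The narrower and the wider search drop or add peaks by construction, and the only bmp3 peak is 280 bp wide. With windows as anchors at 50 kb, or with peaks within 500 bp merged, the 14 peaks stayed 14. The windows sharing a peak stayed 6 with the whole or the centre of the window inside, fell to 5 with peaks of at least 300 bp, and were 7 where a peak within 1 kb counted. Over all genes 120 of the 191 windows shared a peak. Under the same 4 alternatives, in that order, the counts over all genes were 116, 119, 106 and 129. The distances of 5 and 10 kb and the 1 kb allowance were chosen after seeing the data.

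No paired analysis was possible because the list holds positions called from 1 dataset and carries no value per replicate. The read depth is unknown, and an unbound region cannot be told apart from one below detection.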
